A study of Nothobranchius furzeri with 20 samples.

Results

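Old brains exposed to low-dose rotenone were compared here with old brains exposed to the solvent alone. The animal is the turquoise killifish (Nothobranchius furzeri), an annual fish with a short natural lifespan that is used to study ageing. RNA came from whole brain of male fish of strain MZM-04/10p, and the comparison takes the 10 libraries of 27 weeks out of the 20 libraries of the series, chosen by their age and treatment labels. The tested fish received rotenone dosed to 1% of its median lethal concentration (LC50), and their controls received the solvent DMSO, with 5 libraries in each group. A further 5 rotenone and 5 DMSO libraries of 9 weeks entered the same model and show the levels of the same genes in young fish. How rotenone was given, and for how long, is not stated in the labels.

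Rotenone is a plant-derived inhibitor of complex I, the enzyme that passes electrons from NADH into the mitochondrial respiratory chain. At high doses it is toxic to neurons and is used to model parkinsonism in animals, while mild inhibition of complex I has been studied in the biology of ageing. The design asks what a small fraction of the lethal concentration does to gene expression in the aged brain. Genes are given in the files by identifiers of the form Nfu_g_1_ and a number, with no names, and the RefSeq gene table used here matched 0 of them. No gene can therefore be assigned a function, complex I subunits could not be looked up, the brain label could not be checked against marker genes, and no sequence is shown. Genes are described by their level, size of change, length and behaviour across libraries, and 2 identifiers are printed in each direction.

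Totals were 19433958 to 23933846 counts in the rotenone libraries and 21217905 to 23713285 counts in the DMSO libraries of 27 weeks. In whole-tissue RNA, a lower level of a transcript can come from fewer cells of a type or from less RNA per cell, and these cannot be told apart. Nothing in the labels says that the libraries of a group are different fish. The p-values below therefore rest on the spread among the libraries as given, which may be technical in part.

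Before single genes were examined, the 10 libraries of 27 weeks were compared as wholes. The number of genes with a count averaged 21575 ± 77.7 in rotenone and 21578 ± 84.9 in DMSO libraries (SD, n = 5 each). The 100 most abundant genes took 13.37% ± 0.394 of the counts in rotenone and 13.81% ± 0.581 in DMSO libraries. Levels are in CPM, counts scaled to the library total after adjustment by its TMM scaling factor. On the log2 CPM scale, 31.1% of the variance among these 10 libraries lay along a first principal component. Its scores ran from -7.570 to 36.11 in rotenone and from -69.46 to 19.96 in DMSO libraries, with DMSO replicates 1 and 4 lowest at -69.46 and -34.37. Total counts, genes with a count, the share of the top genes, the TMM scaling factor and this score were each tested for a difference between the groups. The p-values ran from 0.0794 to 0.984 before adjustment and from 0.344 to 0.984 after it (exact permutation test over all splits of 5 against 5, two-sided, adjusted over the 5 measures), so no difference was detectable at this sample size.

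The rotenone libraries lay closer to each other than the DMSO libraries did. Root-mean-square distances in log2 CPM between libraries ran from 0.422 to 0.545 among rotenone fish, with a median of 0.481 over 10 pairs, and from 0.437 to 0.773 among DMSO fish, with a median of 0.618. Across the 25 pairs of a rotenone with a DMSO library the median was 0.523, which is below the median among DMSO libraries themselves. Gene by gene, the standard deviation between libraries had a median of 0.140 in rotenone and 0.194 in DMSO fish on the log2 scale, and it was the lower of the pair in rotenone for 70.5% of the genes tested. At 9 weeks the same medians were 0.179 in rotenone and 0.177 in DMSO, and rotenone had the lower standard deviation in 49.4% of genes. Leaving out DMSO replicate 1 lowered the DMSO median at 27 weeks to 0.164, and leaving out any other DMSO library gave 0.189 to 0.200, while leaving out any rotenone library gave 0.130 to 0.140 for rotenone. Genes share these libraries and are not independent, so these values are descriptions without a test.

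Few genes passed the test between rotenone and DMSO at 27 weeks, and their changes were mostly below 2-fold. Of 19452 genes tested, 29 were higher with rotenone, 0.149%, and 47 were lower, 0.242%, which makes 0.391% in all (edgeR quasi-likelihood test, Benjamini-Hochberg adjusted p below 0.05). Among the genes that rose, 5 changed by over 2-fold, 8 by 1.5 to 2-fold and 16 by less, with a median log2 change of 0.47. Among those that fell, 6 changed by over 2-fold, 17 by 1.5 to 2-fold and 24 by less, with a median of -0.56. Over all genes tested the median log2 change was -0.01, with 9245 genes above 0 and 10207 below. An unadjusted p below 0.05 was reached by 2810 genes, 14.4%, where 973 would reach it by chance if no gene differed. Genes share these libraries, so the excess gives no number of changed genes. Scaling by library totals in place of TMM gave 32 higher and 96 lower, 0.658% of genes, and shifted the median of all genes by -0.016. Other methods called more genes, 2.89% with DESeq2 and 2.22% with limma voom.

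**Figure D1:**
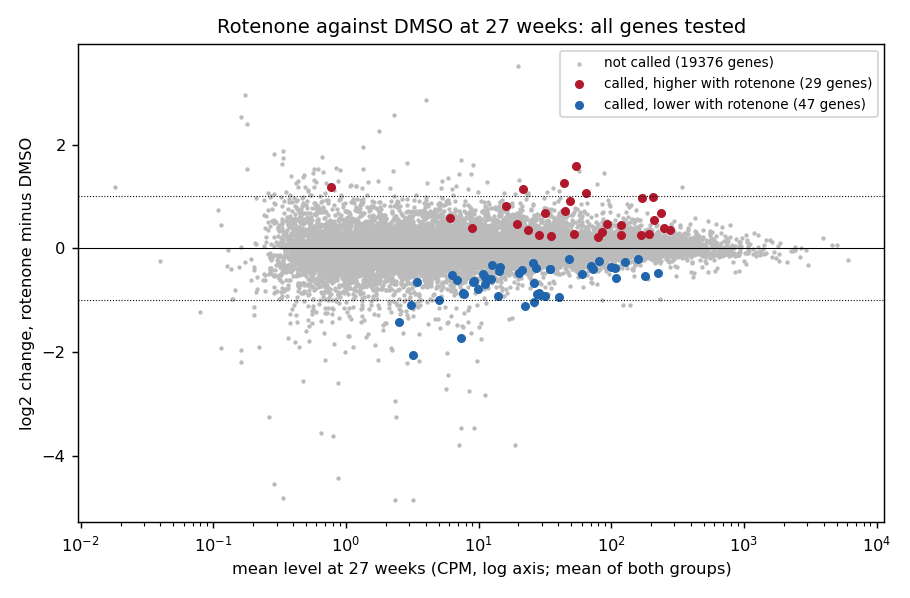
Log2 change (rotenone minus DMSO, 27 weeks) of each of the 19452 genes tested, against its mean level in CPM on a log axis; each point is a gene, called genes are coloured by direction and dotted lines mark 2-fold. The 29 genes called higher and 47 called lower sit mostly inside the 2-fold lines, and many genes outside these lines were not called.

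How large a change the libraries leave room for differed with the level of the gene. The 95% interval of the log2 change lay wholly within 1.5-fold in either direction for 13152 genes, 67.6% of those tested, and wholly within 2-fold for 16588 genes, 85.3%. In the upper tertile of level 91.7% of genes had such an interval within 1.5-fold, against 81.5% in the middle and 29.6% in the lower tertile, where the median standard error was 0.26 against 0.07 in the upper. In counts simulated for this comparison over 19452 genes, 50.7% of genes changed by 1.5-fold were recovered, 76.1% of those changed by 2-fold and 91.0% of those changed by 4-fold. There were 67 changed genes of each size. Genes were drawn independently, each with 1 spread for all libraries, so no library stood apart as DMSO replicate 1 does. These rates may therefore not hold for the real libraries. By tertile of level, 2 genes rose and 8 fell in the lower tertile, 10 rose and 23 fell in the middle, and 17 rose and 16 fell in the upper. These are 0.154%, 0.509% and 0.509% of the genes of each tertile. Without DMSO replicate 1 they were 0.632%, 1.34% and 2.13%.

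Genes that rose had a higher median length and a higher median level than those that fell. Their median length was 4708 bases, from 1587 to 20012, against 3357 bases for the genes that fell, from 390 to 9614. In the shortest tertile of gene length 1 gene rose and 10 fell, and in the longest 18 rose and 17 fell. Without DMSO replicate 1 these counts were 37 and 41 in the shortest and 49 and 34 in the longest tertile. Calls in either direction took 0.170%, 0.463% and 0.540% of the genes of the shortest, middle and longest tertile. The median standard errors there were 0.14, 0.13 and 0.10. Without DMSO replicate 1 the shares were 1.20%, 1.62% and 1.28%. The median over genes of the mean level at 27 weeks was 54.2 CPM for genes that rose and 22.2 CPM for genes that fell, and CPM itself grows with gene length. Whether the lengths of the groups of genes differ beyond chance was not tested.

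The gene with the largest rise that met all the conditions for printing was Nfu_g_1_020882, of 3378 bases. It stood at 72.1, 87.5, 70.5, 77.4 and 99.2 CPM in rotenone libraries 1 to 5 of 27 weeks, and at 44.7, 24.8, 17.2, 24.6 and 23.8 CPM in DMSO libraries 1 to 5. All rotenone libraries lay above all DMSO libraries, of which replicate 1 was the highest. Means were 81.4 ± 11.97 CPM in rotenone and 27.0 ± 10.4 CPM in DMSO (SD, n = 5 each), 3.01-fold apart, with a 95% interval of the log2 change from 1.08 to 2.11 (edgeR adjusted p = 0.00488). At 9 weeks the gene averaged 49.98 ± 12.66 CPM in rotenone and 41.7 ± 13.1 CPM in DMSO fish. The DMSO fish of 27 weeks thus had the lowest mean of the 4 groups and the rotenone fish of the same age the highest. The difference of the rotenone effects between the ages, 1.33 ± 0.34 on the log2 scale (SE), missed the threshold (edgeR adjusted p = 0.158).

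Nfu_g_1_010257, of 3502 bases, showed the cleanest separation among printed genes that rose. It stood at 30.2, 30.9, 26.14, 31.6 and 31.0 CPM in rotenone libraries 1 to 5 and at 13.6, 14.2, 11.6, 14.2 and 14.4 CPM in DMSO libraries 1 to 5. The lowest rotenone library was thus well above the highest DMSO library, and replicate 3 was lowest in both groups, where numbers pair no libraries. Its log2 change was 1.14 ± 0.14 (SE; edgeR adjusted p = 0.000516). At 9 weeks the 5 rotenone libraries ran from 8.57 to 17.4 CPM and the 5 DMSO libraries from 11.4 to 15.2 CPM, so that both young groups overlapped each other and lay below all old rotenone libraries. The difference of the effects between the ages, 1.13 ± 0.20 (SE), missed the threshold (edgeR adjusted p = 0.0523).

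**Figure D2:**
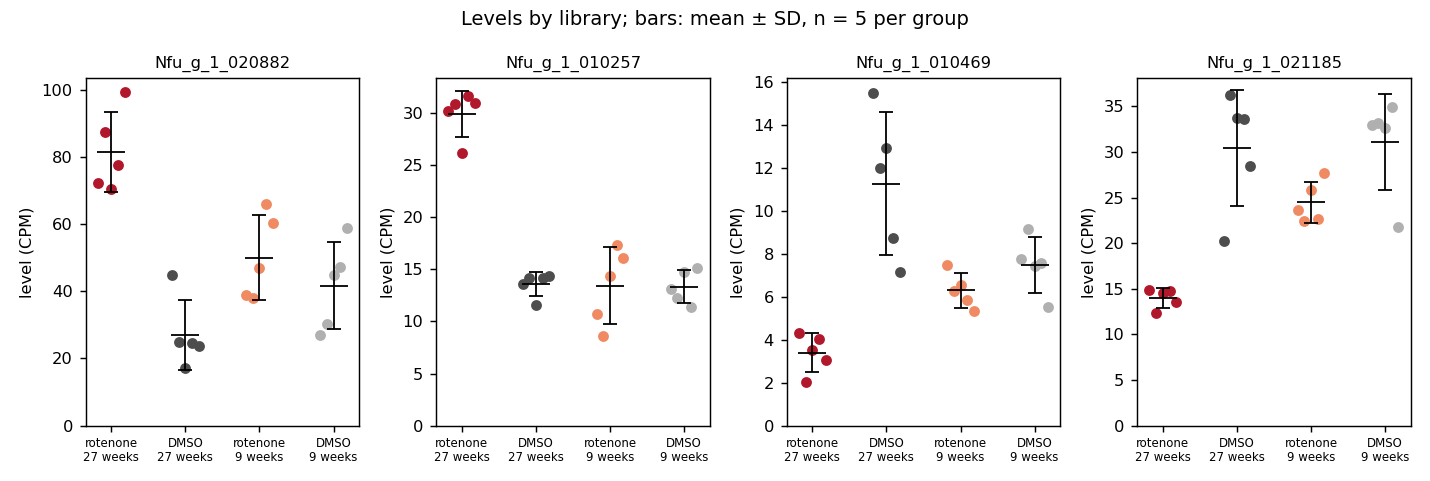
Levels in CPM (linear axes from 0) of the 4 printed genes in every library, by group; points are libraries and bars the mean ± SD of 5 libraries. Within 27 weeks the rotenone and DMSO points do not overlap for any of the 4 genes, while at 9 weeks the groups overlap. For Nfu_g_1_021185 the overlap at 9 weeks comes from DMSO replicate 5 alone. No overlap at 27 weeks was a condition for printing a gene, and no such condition was set at 9 weeks.

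Nfu_g_1_010469, of 1632 bases, had the largest fall among genes that met the conditions. Its levels were 4.32, 2.02, 3.51, 4.05 and 3.07 CPM in rotenone libraries 1 to 5 and 15.5, 12.003, 12.9, 8.76 and 7.13 CPM in DMSO libraries 1 to 5 of 27 weeks. These rest on 48 to 97 counts per rotenone library and 169 to 336 counts per DMSO library. The DMSO libraries were the more spread, with replicates 4 and 5 lowest, and the groups did not overlap. The fall was 3.32-fold, with a 95% interval of the log2 change from -2.17 to -1.29 (edgeR adjusted p = 0.000443). At 9 weeks the means were 6.30 ± 0.798 CPM in rotenone and 7.49 ± 1.30 CPM in DMSO fish (SD, n = 5 each), both between the means of the old groups. The effects at the 2 ages differed by -1.48 ± 0.29 (SE), which did not pass over all genes (edgeR adjusted p = 0.0861).

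Nfu_g_1_021185 is the shortest of the 76 called genes, at 390 bases. It stood at 14.9, 12.3, 14.49, 14.8 and 13.5 CPM in rotenone libraries 1 to 5 and at 20.2, 36.2, 33.7, 33.6 and 28.5 CPM in DMSO libraries 1 to 5. Rotenone libraries lay in a narrow band, and DMSO replicate 1 was the nearest to them. Scaled to its length, its mean level was 35.9 RPKM in rotenone and 78.1 RPKM in DMSO fish, computed from the counts with each library's own TMM-adjusted total. This is the highest length-scaled DMSO level among the 4 printed genes, of which the next was 8.001 RPKM. Its log2 change at 27 weeks was -1.12 ± 0.14 (SE; edgeR adjusted p = 0.000443). At 9 weeks it was also lower with rotenone, at 24.5 ± 2.24 CPM against 31.1 ± 5.28 CPM in DMSO. Rotenone libraries of that age ran from 22.4 to 27.7 CPM. DMSO replicate 5 of 9 weeks lay below them at 21.8 CPM, and the other DMSO libraries above them at 32.6 to 35.0 CPM. The log2 change at 9 weeks, -0.34 ± 0.14 (SE), did not pass over all genes (edgeR adjusted p = 0.567). The difference between the ages was -0.78 ± 0.19 (SE; edgeR adjusted p = 0.145).

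The other called genes included abundant transcripts with small, even changes. The called gene with the highest mean level among those that rose stood at 310, 306, 308, 319 and 316 CPM in rotenone libraries 1 to 5, and at 273, 250, 248, 217 and 235 CPM in DMSO libraries 1 to 5. This is a 1.27-fold rise (edgeR adjusted p = 0.0231), with a standard deviation of 5.64 CPM among rotenone and 20.5 CPM among DMSO libraries. It was called in 5 of the 10 fits without 1 library of 27 weeks. Its counterpart among genes that fell stood at 178, 204, 176, 188 and 191 CPM in rotenone libraries and at 301, 223, 258, 259 and 262 CPM in DMSO libraries, 1.39-fold lower (edgeR adjusted p = 0.00478). For both genes the groups did not overlap. At 9 weeks the gene that rose averaged 251 CPM in rotenone and 254 CPM in DMSO fish, and the gene that fell 236 CPM in rotenone and 269 CPM in DMSO fish. The difference between the ages passed for neither gene (edgeR adjusted p = 0.156 and 0.350).

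The gene with the smallest p-value in each direction changed by just under 2-fold, and after adjustment some larger changes, those of Nfu_g_1_010469 and Nfu_g_1_021185 among them, had the same p. Among genes that rose, this gene stood at 64.0, 69.8, 58.5, 66.5 and 59.9 CPM in rotenone libraries 1 to 5 and at 47.3, 30.7, 34.3, 29.8 and 27.102 CPM in DMSO libraries 1 to 5. DMSO replicate 1 was again the nearest to the rotenone libraries. The log2 change was 0.91 ± 0.11 (SE; edgeR adjusted p = 0.000443), and at 9 weeks the gene averaged 21.9 CPM in rotenone and 22.0 CPM in DMSO. Its difference between the ages, 0.92 ± 0.16 (SE), missed the threshold (edgeR adjusted p = 0.0523). Among genes that fell, it stood at 16.3, 18.9, 19.38, 19.6 and 23.7 CPM in rotenone and at 41.0, 28.4, 37.3, 34.9 and 37.3 CPM in DMSO libraries. It fell by 0.87 ± 0.10 on the log2 scale (SE), with an edgeR adjusted p of 0.000443. At 9 weeks it averaged 49.5 ± 5.56 CPM in rotenone and 48.6 ± 1.23 CPM in DMSO fish (SD, n = 5 each), so the old rotenone libraries lay below every other group. For this gene the difference between the ages passed the test (-0.90 ± 0.14, SE; edgeR adjusted p = 0.0315).

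**Figure D3:**
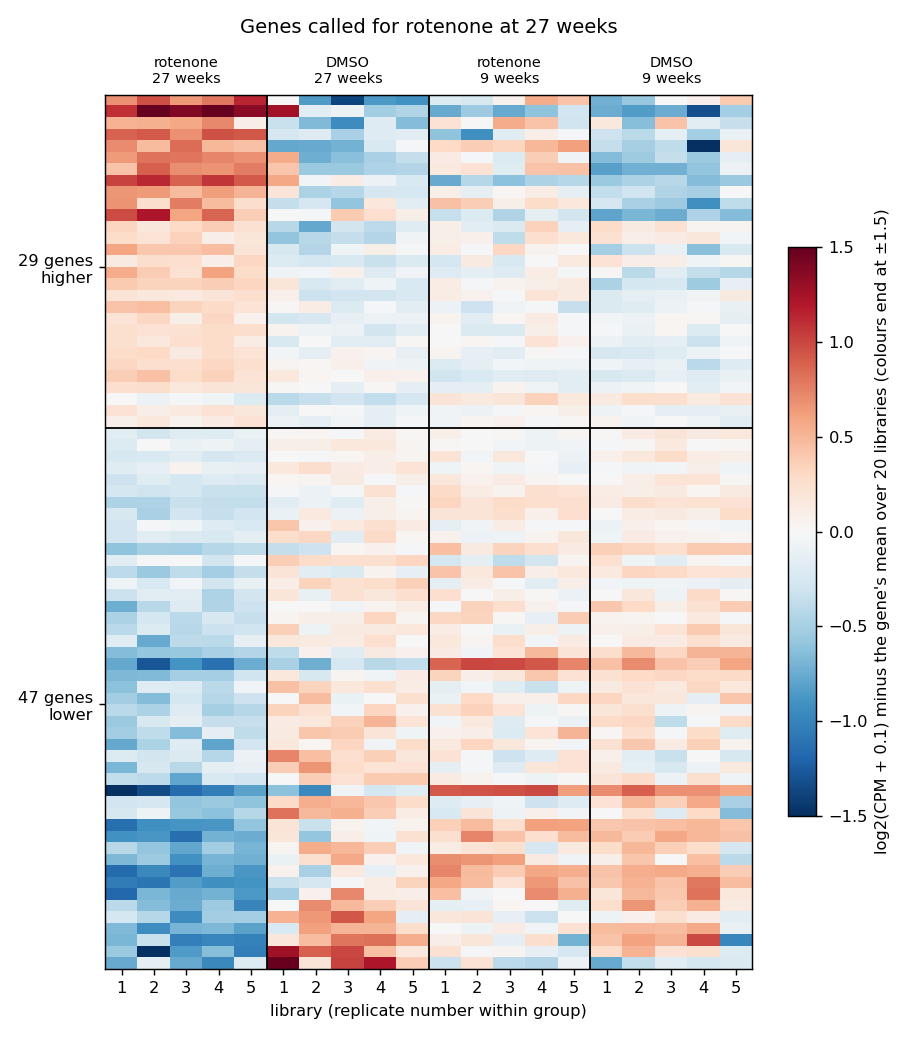
Each row is 1 of the 76 called genes, ordered by log2 change, and each column 1 of the 20 libraries in the 4 groups; colour is log2(CPM + 0.1) minus the mean of that gene over all 20 libraries. Red is above that mean and blue below. In all 5 rotenone libraries of 27 weeks, 28 of the 29 genes called higher lie above it and 45 of the 47 called lower lie below it; these libraries are in the contrast by which the genes were called.

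Of the 76 called genes, 72 had no overlap between the 5 rotenone and 5 DMSO libraries, where 793 of all genes tested, 4.08%, had none. The remaining 721 genes without overlap were not called, and the median size of their log2 change was 0.25. Among the called genes, no one library marked the edge of its group throughout. Calling favours genes whose groups lie apart, so the counts that follow are descriptions only. Over all genes tested, DMSO replicate 1 lay beyond the other 4 DMSO libraries on the side of rotenone in 30.7%. Among the 29 genes that rose, the DMSO library nearest to rotenone was replicate 1 for 11 genes and any other replicate for 2 to 7, and the rotenone library nearest to DMSO was replicate 3 or 5 for 10 genes each and another for 2 to 4. Among the 47 that fell, the nearest DMSO library was replicate 1 or 2 for 12 genes each and replicate 4 for 4. The nearest rotenone library for these genes was replicate 3 or 5 for 13 genes each.

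Changes of over 2-fold were estimated for 258 genes, 1.33% of those tested, and 11 of them were called. The other 247 were 86 with a higher and 161 with a lower estimate in rotenone. In 230 of them the groups overlapped, as they did in all but 4.08% of the genes tested. The median standard error of the 247 was 0.67, against 0.21 for the 11 called. Mean levels of the 247 had a median of 1.55 CPM, with 96 genes below 1 CPM. In 75 of the 247 genes, 1 library stood far from the other 4 of its group, with a gap above 0.71 of the log2 range of that group. DMSO replicate 1 was that library for 45 genes and DMSO replicate 5 for 10, against 1 to 7 for each of the other 8 libraries, where a gene can count once in each group. The share over all genes tested is not given here, and chance gives such a gap in about 1 in 20 groups. Choosing genes by a large estimated change also favours a library that stands far off, so these counts are descriptions only.

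Some genes in these brains stood at either a high or a much lower level in different libraries of the same treatment. In 97 genes the 20 libraries fell into 2 levels separated by more than 1.5 on the log2 scale, with at least 3 libraries at each level, and 0 of these genes were called for rotenone at 27 weeks, where 0.391% of all genes tested were. At an unadjusted p below 0.05 there were 10 of them, 10.31% against 14.4% of all genes. DESeq2 called 3 of the 74 to which it gave an adjusted p, against 2.89% of all such genes, and limma voom called 0 of the 97, against 2.22%. Choosing genes with 2 levels favours a wide spread within groups, which makes a call less likely. At a share as small as 0.391%, 97 genes would also often hold 0 calls, so these counts are descriptions only. Of the 97 genes, 2 sets of 10 shared a pattern over the libraries. The first set was high in 3 of 5 rotenone and 2 of 5 DMSO libraries of 27 weeks, and in 3 of 5 libraries of each treatment at 9 weeks. Its log2 changes at 27 weeks ran from -1.10 to 1.15 (edgeR adjusted p of 0.752 or more), so its genes did not all lean one way despite the shared pattern. The second set was high in all 5 rotenone and in 3 of 5 DMSO libraries of 27 weeks, with DMSO replicates 1 and 4 low, and in 3 of 5 rotenone and 2 of 5 DMSO libraries of 9 weeks. Its log2 changes ran from 0.43 to 1.30 with an adjusted p of 0.548 or more (edgeR), and from -0.12 to 0.60 without these 2 DMSO libraries. As these were the only low libraries of 27 weeks, leaving them out by itself favours a smaller change. Absence was not a feature of the comparison elsewhere: no gene had a count in all 5 libraries of one treatment and 0 in all 5 of the other, among the 7287 genes with too few counts to be tested, and none of the tested genes was at 0 in all 5 libraries of either group.

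How many genes were called depended on single libraries, as the plot of calls by library left out shows. There were 266 calls, 1.36% of genes, without DMSO replicate 1, with 142 higher and 124 lower, and all 76 genes remained called. There were 27 to 44 without rotenone replicate 1, 2, 3 or 4 or DMSO replicate 3 or 4, and 69 to 99 without rotenone replicate 5 or DMSO replicate 2 or 5. In a fit of only the 10 libraries of 27 weeks, 21 genes were called, 0.110%, 8 higher and 13 lower, 19 of the 76 among them. Library quality weights estimated by limma voom were lowest of all 20 libraries for DMSO replicate 1, at 0.356, and next lowest for a DMSO library of 9 weeks at 0.628 and DMSO replicate 4 of 27 weeks at 0.630. With these weights 432 genes were called, 2.22%, 208 higher and 224 lower. They held 236 of the 266 genes, 88.7%, called without DMSO replicate 1, which are 54.6% of the 432. DESeq2, without such weights, called 159 of the 266 genes, 59.8%, and 297 of the 432, 68.8%. Of the 190 genes called only when DMSO replicate 1 was left out and not with all libraries, this library lay beyond the other 4 DMSO libraries on the side of rotenone in 168, 88.4%, against 30.7% of all genes tested, a position that leaving it out favours.

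**Figure D4:**
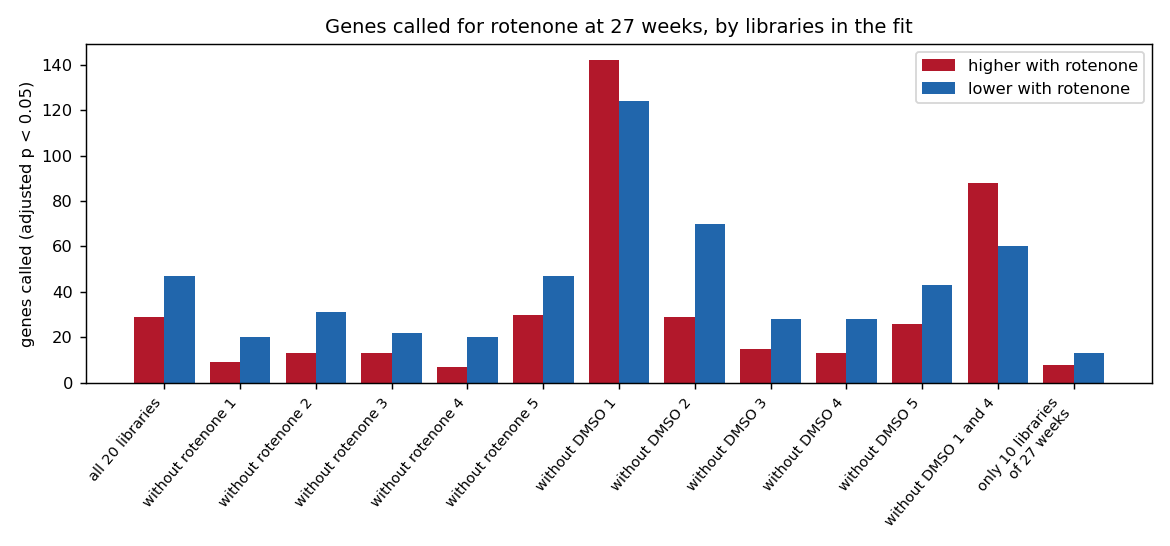
Genes called between rotenone and DMSO at 27 weeks, higher (red) and lower (blue) with rotenone, with all 20 libraries in the fit, without each of the 10 libraries of 27 weeks, without DMSO replicates 1 and 4, and with the 10 libraries of 27 weeks alone; bars start at 0. The bars without DMSO replicate 1 reach 142 and 124, against 29 and 47 with all libraries.

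A smaller group of genes was called whichever library was left out. In each of the 10 fits without 1 library of 27 weeks, 23 of the 76 genes were called, 7 higher and 16 lower, with changes from 1.36-fold to 3.01-fold among those that rose and from 1.26-fold to 3.32-fold among those that fell. Under all 20 alternatives, 14 genes were called, 6 higher and 8 lower, and the 4 printed genes are among them. These alternatives include the 10 fits without 1 library, which the printed genes had to pass to be printed. The 6 genes had log2 changes from 0.47 to 1.59 and mean levels from 16.1 to 237 CPM, and the 8 genes log2 changes from -1.73 to -0.86 and mean levels from 7.33 to 40.7 CPM. At the other end, 8 genes that rose and 17 that fell were called in at most 3 of the 10 fits.

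The contrast at 9 weeks takes the means of other libraries than the contrast at 27 weeks and shows how the called genes stood in young fish given the same dose. Both contrasts come from 1 model, in which all 20 libraries set each gene's spread, so the 76 genes were chosen in part for a low spread that the 9-week libraries share. In young fish 5 genes were called in all, 0.0257% of those tested, and 0 of the 76 were among them in the edgeR fit of all 20 libraries. With upper-quartile scaling edgeR called 1 of the 76, among 9 calls over all genes. Without 1 library of 9 weeks it called 0 to 4 of the 76, and 0 to 24 genes in all. DESeq2 called 6 of the 76 at 9 weeks, and 0.484% of all genes to which it gave an adjusted p. Limma voom called 0 of the 76, and 0.0206% of all genes. At an unadjusted p below 0.05, 10 of the 29 genes that rose in old fish were also higher with rotenone in young fish, 34.5%, where 3.30% of all genes tested were. Of the 47 that fell, 8 were also lower, 17.02% against 3.69%, and 1 was higher. Of the genes called in the fit of the 27-week libraries alone, this held for 2 of the 8 that rose and 4 of the 13 that fell. The 10 genes had log2 changes from 0.31 to 1.07 at 27 weeks and from 0.17 to 0.85 at 9 weeks. The 8 genes had changes from -1.12 to -0.21 at 27 weeks and from -0.48 to -0.11 at 9 weeks. A log2 change of less than 0.1 in either direction at 9 weeks was seen for 13 of the 29 genes, 44.83%, and 26 of the 47, 55.32%, near the 54.2% of all genes tested.

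**Figure D5:**
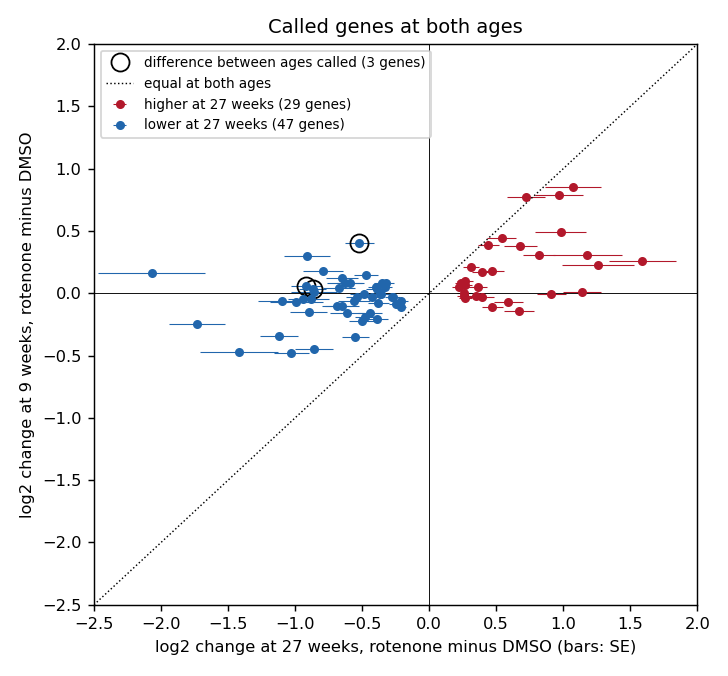
Log2 change with rotenone of the 76 called genes at 27 weeks (horizontal, bars are the SE) and at 9 weeks (vertical); red genes were called higher and blue genes lower at 27 weeks, the dotted line marks equal changes and open circles the 3 genes whose effects differed between the ages. Since the genes were called on the horizontal axis, points there lie away from 0 by choice, and most lie nearer to 0 on the vertical axis.

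Whether the rotenone effect differed between old and young fish was tested by the difference between the ages. This difference contains the 27-week effect by which the 76 genes were chosen, so calls among them are favoured. Over all genes the test called 4 genes, 0.0206% of those tested, and 3 of them were among the 76, all lower with rotenone at 27 weeks. The first stood at 5.18 ± 0.826 CPM in rotenone and 7.40 ± 0.880 CPM in DMSO fish of 27 weeks, and at 19.1 ± 1.44 CPM in rotenone and 14.4 ± 1.3997 CPM in DMSO fish of 9 weeks (SD, n = 5 each). Its log2 effects at the ages differed by -0.92 ± 0.15 (SE), with an edgeR adjusted p of 0.0472. They had opposite signs, -0.52 ± 0.11 at 27 weeks and 0.40 ± 0.11 at 9 weeks (SE). The rise at 9 weeks did not pass over all genes (edgeR adjusted p = 0.247). The second is the gene that fell with the smallest p-value, described above. The third stood at 9.72 ± 1.16 CPM in rotenone and 18.4 ± 2.94 CPM in DMSO fish of 27 weeks, and at 27.8 ± 2.59 CPM in rotenone and 26.8 ± 1.62 CPM in DMSO fish of 9 weeks, and its effects differed by -0.97 ± 0.15 (SE; edgeR adjusted p = 0.0315). Of the 20 fits without 1 library, the first gene was called for this difference in 6, the second in 9 and the third in 10. All 3 genes had their lowest group mean in old rotenone fish. For the remaining 73 genes the difference between the ages did not pass, so effects that differ with age are not shown for them. For the 3 genes the test shows a difference of effects, not that young fish did not respond. Calls made by this test ran from 0 to 34 over the 20 fits without 1 library, the highest without DMSO replicate 1 of 27 weeks.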

How the data were processed

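Brain RNA of 20 killifish libraries was sequenced, and the authors deposited whole-number counts per gene, not normalized. Libraries were made with the TruSeq RNA kit, per the labels' protocols. The submitters' processing notes name STAR 2.4.1d, featureCounts 1.4.6-p4 and bcl2fastq 1.8.4. No source used here names a genome build, an annotation or a strand setting, so reads of overlapping, antisense or near-identical genes could not be told apart. The authors also deposited RPKM values. Of the 431241 values above 0, 4.02% were recovered from the counts within 0.0011 RPKM when each column was scaled to its own total, and 100.0% when the 20 totals were recycled down the columns. This table therefore served only to recover gene lengths.

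The test used edgeR 4.0.16 under R 4.3.3, with filterByExpr (19452 of 26739 genes, 99.96% of counts), TMM factors between 0.98 and 1.02, and a robust quasi-likelihood fit with 1 mean per group over all 20 libraries. Called genes are those with an adjusted p (Benjamini-Hochberg) below 0.05. Log2 CPM used a prior count of 2. Alternatives used DESeq2 1.42.0 and limma 3.58.1. The method was tested on simulated data without outlying libraries, where 5 of 151 calls were genes left unchanged. This rate may not hold for the real libraries. One count in the smallest library is 0.0515 CPM before TMM adjustment. Replicates were numbered in accession order and pair nothing. Pairs of libraries within the 27-week groups differed beyond sampling noise, with a chi-square per degree of freedom of 7.80 to 57.1.

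Identifiers were printed by rule: among called genes with a mean of at least 1 log2 CPM, no overlap between groups and a call in each of the 10 fits without 1 library (23 genes), those with the largest change, 2 in each direction. The called genes with the highest mean level and smallest p are described without identifiers. The 3 genes called for the difference between the ages are described outside this rule, and were chosen after their values were seen. The comparison, rule and alternatives were chosen with earlier results of these data known.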

Additional observations from a re-analysis of the deposited data

Results flagged for a closer look

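Single libraries far from the other 4 of their group were looked for in 26 groups, 10 of library measures and 16 of printed genes. In 5 of them the gap exceeded 0.71 of the range, where chance gives about 1 in 20. DMSO replicate 4 of 27 weeks had 21427 genes with a count, against 21600 in the nearest library of that group. Nfu_g_1_020882 stood at 44.74 CPM in DMSO replicate 1 of 27 weeks, against 24.84 CPM in the nearest. Nfu_g_1_010257 stood at 26.14 CPM in rotenone replicate 3 of 27 weeks, against 30.17 CPM, and at 11.57 CPM in DMSO replicate 3, against 13.61 CPM. Nfu_g_1_021185 stood at 21.78 CPM in DMSO replicate 5 of 9 weeks, against 32.57 CPM. A test of the difference between 27 and 9 weeks called 4 of 19452 genes, 0.0206%. That difference contains the 27-week effect by which the 76 genes were chosen, so calls among them are favoured. Of the 4 genes, 3 were among the 76, and they were called in 6, 9 and 10 of the 20 fits without 1 library. Their log2 changes with rotenone ran from -0.92 to -0.52 in old fish and from 0.03 to 0.40 in young fish.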

How the results depend on the processing

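Counts of calls for rotenone at 27 weeks were 128 with library totals, 484 with DESeq2, 432 with limma voom and library quality weights, 21 with only the 10 libraries of 27 weeks and 148 without DMSO replicates 1 and 4 (chosen since earlier results showed them to stand apart), against 76. Without 1 library they ran from 27 to 266. The cause was not tested. Some of these fits also held fewer libraries, and the effect of that was not tested either. The share of calls that were higher was 38.2%, and 25.0% with library totals, 28.3% with DESeq2, 48.15% with voom, 53.4% without DMSO replicate 1 and 59.5% without replicates 1 and 4. Calls of the 4 printed genes held under all 20 alternatives, but a call in the 10 fits without 1 library was a condition for printing them. For rotenone at 9 weeks, upper-quartile scaling gave 9 and DESeq2 92 calls against 5, and fits without 1 library gave 0 to 24. For the difference between the ages, a minimum of 10 counts in every library gave 12, voom 18 and DESeq2 152 calls against 4, and fits without 1 library 0 to 34. With library totals the genes called lower were 15, 41 and 40 in the lower, middle and upper tertile of level and 27, 37 and 32 in the shortest, middle and longest tertile of length, and 2 of the shortest were higher. Without DMSO replicate 1, an alternative chosen after seeing the data, 21, 43 and 78 genes rose and 20, 44 and 60 fell by tertile of level, and 37, 56 and 49 rose and 41, 49 and 34 fell by tertile of length. The TMM factor difference between the groups, -0.01100, ran from -0.01540 to -0.008404 without 1 library and passed the adjusted exact permutation test in 1 of these 10. Standard errors were widest in the lower tertile of level, with a median of 0.26. No paired analysis was possible because the labels give no replicate numbers shared by groups.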
